A study of Saccharomyces cerevisiae with 64 samples.

Results

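The 8 genes described here encode the 4 forkhead-domain proteins of budding yeast, Saccharomyces cerevisiae, and 4 regulators that act with them or on the same promoters: FKH1, FKH2, FHL1, HCM1, NDD1, MCM1, YOX1 and YHP1. They were chosen by name from the 7053 gene names of the deposited RNA table, and 8 of 8 were found there, each in an entry of its own. Their RNA was read as FPKM, a level of fragments scaled by transcript length and library size, and the replication of their loci as signal of bromodeoxyuridine (BrdU), a thymidine analogue built into new DNA and pulled down with an antibody.

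Fkh1 and Fkh2 are paralogous forkhead transcription factors. Fkh2 binds together with Mcm1, a MADS-box protein, and the coactivator Ndd1 joins them to switch on the CLB2 cluster, the genes of G2 and mitosis; Fkh1 shares many of these promoters and also acts at replication origins, where Fkh1 and Fkh2 favour early firing. Hcm1 is the forkhead factor of late G1 and S phase, and its known targets include NDD1, FKH1, FKH2 and WHI5. Fhl1 has a diverged forkhead domain and sits at ribosomal protein genes, where Ifh1 activates and Crf1 represses with it. Yox1 and Yhp1 are paralogous homeodomain repressors that work with Mcm1 at the early cell cycle box, a promoter element of genes expressed from late mitosis to G1.

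The series held 64 libraries in 29 groups, 58 of DNA and 6 of RNA. At 25 °C, cells were held in G1 for 3 h by the pheromone α-factor (7.5 nM) and then had galactose (2%) for 2 h before RNA was taken or the cells were released. The groups called no OE, Fkh1 OE and Fkh2 OE were wild-type cells with pGAL, pGAL-Fkh1 or pGAL-Fkh2, so that galactose induced the added gene on a strong promoter while the chromosomal FKH1 and FKH2 stayed in place. The double mutant, DM, was fkh1Δ fkh2Δ ars501Δ::ARS305 with pGAL, and its partner carried pGAL-Fkh1; both lacked the chromosomal FKH1 and FKH2, and both had the early origin ARS305 in place of ARS501. A separate pair compared wild-type cells with pGAP-RNR3, which makes a subunit of ribonucleotide reductase, with wild-type cells without it. For replication in hydroxyurea (HU), a drug that lowers nucleotide supply and slows forks, cells were released for 60 min into 0.2 M HU, and BrdU was at 400 µg/mL. Without drug, BrdU at 800 µg/mL was present from 20 to 35 min, from 30 to 45 min or from 40 to 55 min of the release. There were 3 immunoprecipitated libraries for each wild-type HU group and 2 for each other BrdU group and each RNA group; the labels do not say whether libraries of a group are separate cultures, so q-values may measure a technical spread.

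Every deposited column combined the libraries of a group, so no value below has a standard deviation, and depth is unknown. Differences of RNA were called where the authors' deposited table gave a q-value below 0.05; its q-values go no lower than 0.000327. BrdU folds have no test, and 2-fold was used as a rule of size. In the RNA groups, the 8 pheromone-induced genes listed as markers of the arrest (among them FUS1, FAR1 and KAR4) stood between 138 and 2935 FPKM, and the 4 galactose genes GAL1, GAL2, GAL7 and GAL10 between 2942 and 7863 FPKM. The S and M phase cyclin genes CLB1, CLB2, CLB5 and CLB6 stood between 3.25 and 22.8 FPKM. CLN2, listed beside them as a marker of cells that left G1, stood at 30.5, 27.0 and 22.3 FPKM in no OE, Fkh1 OE and Fkh2 OE. The histone genes HTA1, HTB1 and HHF1, of the same list, stood between 702.5 and 2009 FPKM. Histone genes have near-identical copies that may share reads. Against no OE, 3 of the 8 arrest markers were lower with Fkh2 overexpression in the authors' deposited table, beside 17.0% of all entries. The summed level of the 8 was 9814 FPKM in no OE, 10143 in Fkh1 OE and 6742 in Fkh2 OE. Of the 8 markers of cells that left G1, 3 were higher (CLB1, CLB2 and HHF1) and 2 lower (HTA1 and HTB1) with Fkh2 overexpression. Beside these, 13.7% of all entries were higher and 17.0% lower. With Fkh1 overexpression 1 of the 8 was higher (HHF1), beside 5.59% of all entries. The part of these marker shifts in the results below was not tested.

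By R64 coordinates, FKH1 (YIL131C) is at chrIX:100781-102235, FKH2 (YNL068C) at chrXIV:495701-498289, FHL1 (YPR104C) at chrXVI:733623-736433 and HCM1 (YCR065W) at chrIII:229310-231004. NDD1 (YOR372C) is at chrXV:1034807-1036471, MCM1 (YMR043W) at chrXIII:353871-354731, YOX1 (YML027W) at chrXIII:221406-222563 and YHP1 (YDR451C) at chrIV:1361120-1362181. The paralogous pairs sit in like surroundings. FKH1 lies 1364 bp from RPL16A and FKH2 699 bp from RPL16B, a pair of genes for the same ribosomal protein. YOX1 lies 423 bp from RPS18B and 677 bp from the peroxiredoxin gene TSA1, and YHP1 lies 321 bp from RPS18A and 2890 bp from TSA2. MCM1 lies 734 bp from ARG80, which encodes the other MADS-box protein of that family in the arginine pathway.

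Overexpression raised the RNA of the induced forkhead gene far above that of every other member, and in Fkh2 OE it went with lower RNA of FKH1, NDD1 and FHL1. FKH1 stood at 20.9 FPKM in no OE, 1458 in Fkh1 OE and 8.23 in Fkh2 OE. It was 69.6-fold higher with Fkh1 overexpression and 2.54-fold lower with Fkh2 overexpression, both with q = 0.000327 in the authors' deposited table. FKH2 stood at 14.3 FPKM in no OE, 13.3 in Fkh1 OE and 2220 in Fkh2 OE. It was 155-fold higher with Fkh2 overexpression (q = 0.000327 in the authors' deposited table), and its value in Fkh1 OE was not called different from no OE (q = 0.767 in the authors' deposited table). RNA from the added copy and from the chromosomal copy of an induced gene cannot be told apart in FPKM. The fall of FKH1 in Fkh2 OE concerns the chromosomal gene, since that strain carried no added FKH1. Among the 6129 entries tested in all 3 comparisons, FKH1 rose from percentile 18.4 in no OE to 96.1 in Fkh1 OE, and FKH2 from percentile 11.4 to 98.0 in Fkh2 OE.

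NDD1, the coactivator of Fkh2 and Mcm1, was lower with either forkhead gene induced. Its level was 20.6 FPKM in no OE, 12.7 in Fkh1 OE and 9.41 in Fkh2 OE. The decrease was 1.62-fold with Fkh1 overexpression (q = 0.0177 in the authors' deposited table) and 2.19-fold with Fkh2 overexpression (q = 0.000327 in the authors' deposited table). The direct comparison of Fkh2 OE with Fkh1 OE was not called (q = 0.216 in the authors' deposited table), so the size of the decrease was not shown to differ between them. The 2 comparisons with no OE share its libraries.

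FHL1, the ribosomal protein gene regulator, stood at 11.9 FPKM in no OE, 11.5 in Fkh1 OE and 6.59 in Fkh2 OE. It was 1.81-fold lower in Fkh2 OE than in no OE (q = 0.000894 in the authors' deposited table) and 1.75-fold lower than in Fkh1 OE (q = 0.0026 in the authors' deposited table). The lower level was thus seen with Fkh2 and not called with Fkh1 (q = 0.905 in the authors' deposited table), and the direct comparison of the overexpressing groups separated them.

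The homeodomain repressor genes stood below no OE in Fkh1 OE, 1.54-fold for YOX1 and 1.51-fold for YHP1, without passing the threshold. YOX1 stood at 21.8 FPKM in no OE, 14.1 in Fkh1 OE and 26.6 in Fkh2 OE. Against no OE its q-values in the authors' deposited table were 0.0562 for Fkh1 OE and 0.418 for Fkh2 OE. It was 1.88-fold higher in Fkh2 OE than in Fkh1 OE (q = 0.00166 in the authors' deposited table). YHP1 stood at 22.0, 14.5 and 17.2 FPKM in no OE, Fkh1 OE and Fkh2 OE, and 0 of its 3 comparisons was called, with q-values of 0.0747, 0.333 and 0.550 in the authors' deposited table.

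HCM1 and MCM1 were not called in any comparison. HCM1, the S-phase forkhead gene, stood at 13.6 FPKM in no OE, 12.3 in Fkh1 OE and 12.6 in Fkh2 OE. MCM1 had the highest FPKM of the 8 in no OE, at 87.1, and stood at 97.1 in Fkh1 OE and 98.1 in Fkh2 OE. In no OE the others followed in the order YHP1, YOX1, FKH1 and NDD1, all between 20.6 and 22.0 FPKM, and then FKH2, HCM1 and FHL1, between 11.9 and 14.3 FPKM. Whether neighbours in this order differ beyond the spread of libraries could not be judged from combined columns.

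In all, 2 of 8 members were called with Fkh1 overexpression against 11.0% of all 6212 tested entries, FKH1 higher (5.59% of entries) and NDD1 lower (5.39%). With Fkh2 overexpression 4 of 8 were called against 30.7% of 6208 entries, FKH2 higher (13.7% of entries) and FKH1, NDD1 and FHL1 lower (17.0%). Between the overexpressing groups 4 of 8 were called against 18.9% of 6227 entries, FKH2 and YOX1 higher in Fkh2 OE (7.24% of entries) and FKH1 and FHL1 lower (11.7%). One member in the first comparison and one in the second is the induced gene itself. The median log2 fold of the 8 was -0.12 with Fkh1 overexpression and -0.23 with Fkh2 overexpression, beside 0.00 and -0.03 over all tested entries.

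**Figure D1:**
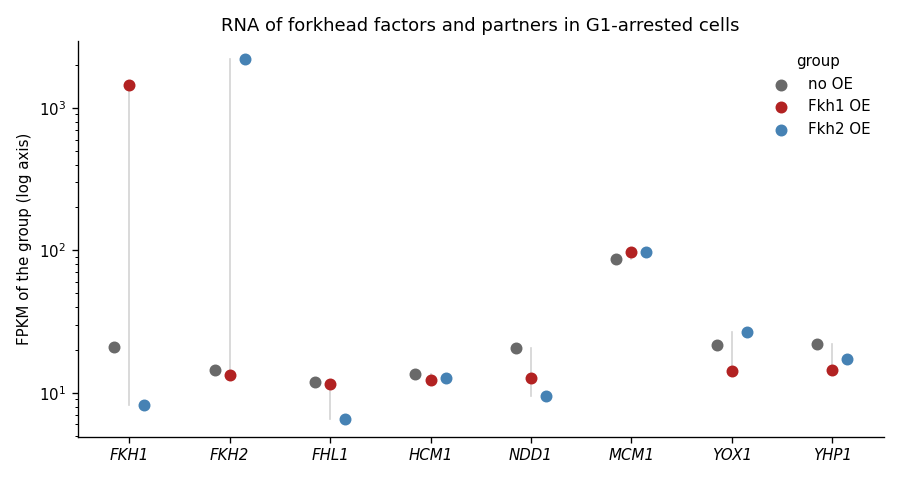
FPKM (log axis) of the 8 genes in no OE, Fkh1 OE and Fkh2 OE cells arrested in G1, 1 point for the combined libraries of each group. FKH1 reaches 1458 and FKH2 2220 FPKM where induced, FKH1, FHL1 and NDD1 have their lowest point in Fkh2 OE, and the 3 points of HCM1 and of MCM1 lie close together.

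Of the 6 listed Hcm1 targets, 4 were lower and 1, the induced FKH1, higher with Fkh1 overexpression, beside 5.39% and 5.59% of all entries. With Fkh2 overexpression 5 were lower and 1, the induced FKH2, higher, beside 17.0% and 13.7% of all entries. WHI5, which encodes an inhibitor of the G1 activator SBF, fell from 13.1 FPKM in no OE to 4.81 in Fkh1 OE and 5.68 in Fkh2 OE. CIN8, a mitotic kinesin gene, fell from 16.9 FPKM to 7.47 and 5.83, and the kinetochore gene DSN1 fell from 27.1 FPKM to 15.0 and 11.0. Among the 6 are 3 members (FKH1, FKH2 and NDD1), and 3 of the 3 others were lower in each overexpressing group in the authors' deposited table. HCM1 itself was called in neither. The median log2 fold of the 6 was -0.77 with Fkh1 and -1.25 with Fkh2 overexpression.

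Of 22 listed genes of the CLB2 cluster, 8 were lower with Fkh2 overexpression, beside 17.0% of all entries, and 3 were higher, a share close to the 13.7% of all entries. The median log2 fold was -0.21, beside -0.03 over all entries. CLB2, the main mitotic cyclin gene, stood at 12.8 FPKM in no OE and 22.8 in Fkh2 OE, and CLB1 at 3.25 and 7.62 FPKM. CHS2, the chitin synthase gene of the primary septum, stood at 9.56, 14.4 and 21.8 FPKM in no OE, Fkh1 OE and Fkh2 OE, and was called higher in both. Of the 8 lower genes, BUD8, which marks the distal bud site, stood at 41.6 FPKM in no OE and 20.4 in Fkh2 OE. MOB1, of the mitotic exit network, stood at 66.0 and 33.6 FPKM, and MYO1, the myosin of the cytokinetic ring, at 20.0 and 10.9 FPKM. With Fkh1 overexpression 1 of the 22, CHS2, was called, beside 11.0% of all entries (q = 0.0369 in the authors' deposited table).

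Of the 9 genes of the early cell cycle box, read by Mcm1 with Yox1 and Yhp1, 1 was called with Fkh1 and 2 with Fkh2 overexpression, beside 11.0% and 30.7% of all entries. CLN3, the G1 cyclin gene, stood at 82.1 FPKM in no OE, 128 in Fkh1 OE and 131 in Fkh2 OE, and was higher in both (q = 0.0062 and 0.00436 in the authors' deposited table). Of the other 8, which include SWI4, CDC6 and the MCM2 to MCM7 genes of the replicative helicase, 1 was called, MCM4, at 20.5 FPKM in no OE and 13.4 in Fkh2 OE. Mating type a-specific genes, which Mcm1 activates, were 3 higher and 0 lower with Fkh1 overexpression and 0 higher and 3 lower with Fkh2 overexpression, of 6 tested; 5.59% of all entries were higher in the former and 17.0% lower in the latter. MFA2, a gene of the a-factor pheromone, stood at 53144 FPKM in no OE, 150574 in Fkh1 OE and 31690 in Fkh2 OE; MFA1 and MFA2 are close copies whose reads may have been shared. STE6, the exporter of a-factor, stood at 232, 350.0 and 198 FPKM, and was called higher in Fkh1 OE. ASG7 stood at 2880, 3323 and 1456 FPKM, and was called lower in Fkh2 OE. BAR1, whose product degrades α-factor, was listed at 0 in all 3 groups. Between the overexpressing groups, 5 of the 6 tested a-specific genes were lower in Fkh2 OE, beside 11.7% of all entries.

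Among the listed partners of Fhl1, CRF1 and the entry of IFH1 moved with opposite signs. CRF1, the corepressor gene, fell from 130.0 FPKM in no OE to 78.2 in Fkh1 OE and 43.9 in Fkh2 OE. The entry that holds IFH1, the coactivator gene, rose from 28.9 FPKM to 41.7 and 49.6; it also covers the overlapping YLR222C-A, and its reads cannot be assigned to one of them. RAP1 fell from 19.2 FPKM in no OE to 9.45 in Fkh2 OE, and SFP1 rose from 33.3 FPKM to 49.6 in Fkh1 OE. Against no OE, RAP1 was not called in Fkh1 OE, SFP1 was not called in Fkh2 OE, and HMO1 was called in neither. Of the 5 listed genes, 2 were higher and 1 lower with Fkh1 overexpression and 1 higher and 2 lower with Fkh2 overexpression, beside 11.0% and 30.7% of all entries called.

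Among proteins known to work with the forkhead factors themselves, 0 of 10 were called with Fkh1 overexpression by the authors' Cuffdiff q-values, beside 11.0% of all entries. Of these 10, 0 had an unadjusted Cuffdiff p below 0.05. With Fkh2 overexpression 3 of the 10 were called, beside 30.7% of all entries: CLB2 was higher, and CDC28 and DBF4 were lower. DBF4, the regulatory subunit of the kinase that fires origins and a protein known to bind Fkh1, stood at 32.0 FPKM in no OE, 32.2 in Fkh1 OE and 14.3 in Fkh2 OE. CDC28, the cell cycle kinase gene, stood at 154, 124 and 82.6 FPKM. Of the 7 listed partners of Mcm1, 3 of which are members, 0 were called with Fkh1 overexpression by the authors' Cuffdiff q-values, beside 11.0% of all entries. Of these 7, 3 had an unadjusted Cuffdiff p below 0.05. With Fkh2 overexpression 3 of the 7 were called, beside 30.7% of all entries: the induced FKH2 and ARG80 higher, and STE12 lower. In Fkh2 OE STE12, the pheromone response factor gene, was 73.3 FPKM against 146 in no OE, and ARG80 was 86.9 against 46.1. The G1 transcription factor genes SWI6 and MBP1 were lower in both overexpressing groups, SWI6 at 127, 89.6 and 45.6 FPKM and MBP1 at 30.2, 20.9 and 10.7 FPKM in no OE, Fkh1 OE and Fkh2 OE, as was WHI5 of the same list of 6; 5.39% of all entries were lower with Fkh1 and 17.0% with Fkh2 overexpression. The other 3 genes of that list were not called in either.

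**Figure D2:**
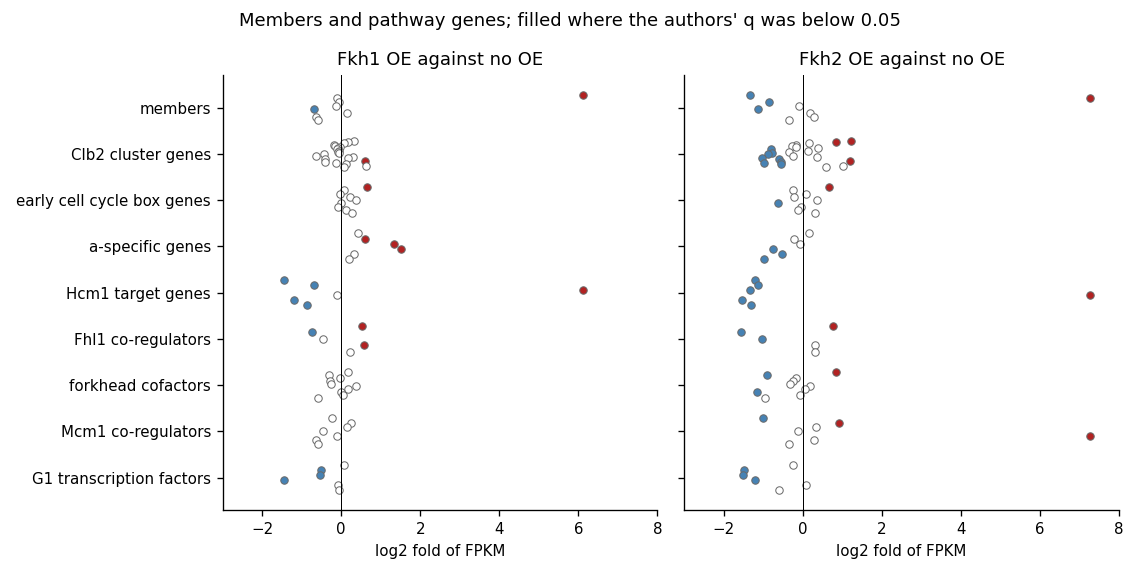
Log2 fold of FPKM against no OE for each member and each gene of 8 pathway lists, with Fkh1 OE on the left and Fkh2 OE on the right; filled points had a q-value below 0.05 in the authors' deposited table, red higher and blue lower. The induced FKH1 and FKH2 stand alone at 6.12 and 7.28 in each list that holds them, and the other filled points of the Hcm1 target list lie left of 0 in both panels.

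NDD1 and FHL1, the members called against no OE that no added copy induced in any group, were set beside the 6098 entries with at least 1 FPKM in all 3 groups, by the distance between the pair of log2 folds against no OE. Nearest to NDD1 were RUD3, at 35.0, 21.3 and 16.0 FPKM in no OE, Fkh1 OE and Fkh2 OE, then YKL107W and GUT1. Nearest to FHL1 were YOR325W, at 122, 118 and 67.7 FPKM, then YLR232W and YJR029W. The levels of YJR029W, at 2.43, 2.38 and 1.33 FPKM, were close to the limit of 1 FPKM. This likeness rests on 3 groups, and comparisons that share no OE.

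At the DNA level the members replicated at different times in cells without an added forkhead gene, with HCM1 first and FHL1 last. Over the HCM1 gene the BrdU signal was 0.228 in the pulse of 20 to 35 min, 0.661 in that of 30 to 45 min and 0.268 in that of 40 to 55 min, in the relative units of the time course table. In the middle pulse it stood at percentile 98.9 of all gene loci. FHL1 had 0.00826, 0.0190 and 0.114 in the same pulses, and stood at percentile 14.3 in the last. FKH1 followed HCM1, with 0.0650, 0.293 and 0.316. FKH2, MCM1, NDD1 and YOX1 lay between 0.00781 and 0.0166 in the first pulse, between 0.109 and 0.179 in the second and between 0.303 and 0.313 in the third. YHP1 was later than these 4, with 0.00524, 0.0675 and 0.220. Each pulse had 1 combined column, and the order of close values has no test.

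On the deposited scale, early signal was higher with Fkh1 overexpression at most of these loci, as at most loci of the genome. In the pulse of 20 to 35 min, 6 of 8 members rose at least 2-fold, against 60.5% of all gene loci. FKH2 went from 0.0166 to 0.115, a 6.90-fold increase, and YHP1 from 0.00524 to 0.0263, a 5.01-fold increase. YOX1 rose 3.15-fold, FKH1 2.76-fold, MCM1 2.41-fold and NDD1 2.10-fold, while HCM1 (1.80-fold) and FHL1 (1.72-fold) stayed under the rule of size. In the pulse of 30 to 45 min, 3 of 8 rose at least 2-fold against 43.8% of all loci. These were FHL1, from 0.0190 to 0.0687, with FKH2 at 2.52-fold and YHP1 at 2.14-fold; HCM1 stood at 0.885 of its value in no OE. In the last pulse 0 of 8 passed 2-fold against 9.51% of all loci, and the folds ran from 0.626 at FKH1 to 1.87 at FHL1. FHL1 and YHP1 were above their no OE values in 3 of 3 pulses on this scale. Over the FKH1 gene, BrdU of the added copy and of the chromosomal copy cannot be told apart. The nuclear total of the Fkh1 OE column was 2.13 times that of no OE in the first pulse and 1.36 times in the second. With each column divided by its total, 2 of 8 passed in the first pulse (FKH2 and YHP1) and 1 of 8 in the second (FHL1), and FHL1, HCM1 and NDD1 turned to 0.807, 0.845 and 0.986 of no OE in the first. Here and below, counts after division by totals have no share of all loci or sites beside them, so they cannot be set against the genome.

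**Figure D3:**
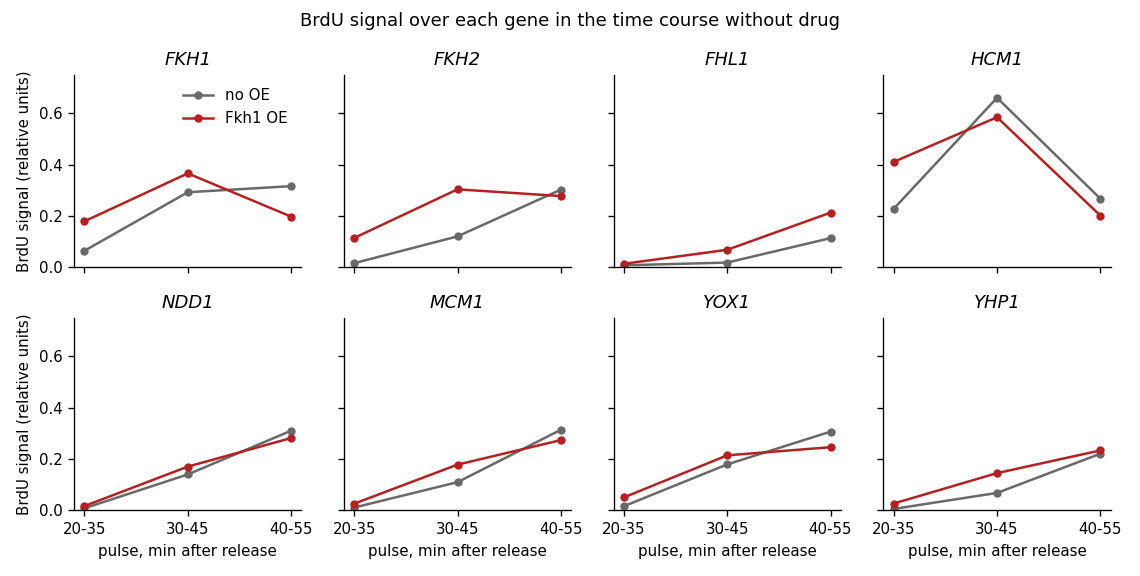
Mean BrdU signal over each of the 8 genes (relative units of the time course table) in the 3 pulses of the time course without drug, for no OE (grey) and Fkh1 OE (red), 1 combined value per point. HCM1 peaks in the middle pulse at 0.661 without and 0.585 with Fkh1 overexpression, FHL1 is the lowest of the 8 in the middle pulse of both groups, and the red line of FKH2 starts at 0.115 against 0.0166.

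In HU, where forks stay near the origins that fired, the genes themselves held little signal. In no OE the 8 gene bodies lay between 0.00375 at YHP1 and 0.0107 at HCM1, or 0.874 to 2.49 times the median nuclear bin. In Fkh1 OE 2 of 8 were at least 2-fold higher against 12.4% of all gene loci, FKH2 (0.00418 to 0.00962, 2.30-fold) and FKH1 (0.00546 to 0.0118, 2.16-fold). In Fkh2 OE 0 of 8 passed 2-fold in either direction against 8.61% of all loci. The highest fold there was 1.43 at FKH2. Between Fkh2 OE and Fkh1 OE 0 of 8 passed 2-fold against 16.2% of all loci, with FKH1 nearest at 0.508. Over FKH1 in Fkh1 OE and over FKH2 in Fkh2 OE, BrdU of the added copy and of the chromosomal copy cannot be told apart. The nuclear total in Fkh1 OE was 1.39 times that of no OE, and that in Fkh2 OE 0.649 times. After division by these totals 0 of 8 passed for Fkh1 OE, with 4 turned below no OE (FHL1, HCM1, NDD1 and YHP1), and 2 of 8 for Fkh2 OE (FKH2 and YHP1). Between Fkh2 OE and Fkh1 OE 8 of 8 then turned from below to above 1, and NDD1 and YHP1 passed.

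The BrdU peak nearest to each gene was read next. Peaks were local maxima of the smoothed signal at 3 times the median or more. In no OE, HCM1 had a peak 5.1 kb upstream of its start at 164 times the median, NDD1 one 17.3 kb upstream at 136 times, FKH1 one 4.0 kb upstream at 14.7 times and YOX1 one 4.7 kb beyond its end at 5.39 times. The nearest peak of MCM1 was 16.5 kb away, that of FHL1 40.6 kb, that of FKH2 41.3 kb and that of YHP1 162.8 kb. In Fkh1 OE a peak stood 986 bp upstream of the FKH2 start at 9.26 times the median, another 7.5 kb beyond the end of YHP1 at 10.7 times, and a low one 1.3 kb beyond the end of MCM1 at 3.03 times. In Fkh2 OE peaks stood at the same places, at 6.15 times the median by FKH2, 4.21 times by YHP1 and 3.11 times by MCM1.

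For each member the nearest peak over the 3 wild-type HU columns was read in a 2 kb window, a choice made after seeing the peaks that favours rises. All other sites of the genome were read in the same way. At the windows of FKH2, FHL1, MCM1 and YHP1 no peak was called in no OE. These windows entered only through the overexpressing columns, so larger rises there than over the genes were built in. By FKH2 the window at chrXIV:498201-500200 took in the first bins of FKH2 and reached RPL9B. Its signal was 0.00448 in no OE, 0.0425 in Fkh1 OE and 0.0209 in Fkh2 OE, 9.48-fold and 4.68-fold above no OE. RPL9B RNA was 471 FPKM in no OE, 795 in Fkh1 OE and 855 in Fkh2 OE, called in both; RPL9B has a near-identical copy, RPL9A, with which it may share reads. By YHP1, in ECM11 at chrIV:1352551-1354550, the signal was 0.00534, 0.0469 and 0.0138, 8.77-fold and 2.59-fold above no OE. By FKH1, in ASG1 and TAO3 at chrIX:105001-107000, it was 0.0540, 0.297 and 0.115, 5.49-fold and 2.12-fold above no OE. The RNA of ASG1 and of TAO3 was not called against no OE in either overexpressing group. FHL1 was read 38.3 kb away, in TKL1 and OPY2 at chrXVI:694251-696250, with 0.00678, 0.0302 and 0.0178. YOX1, in RPS17A and NSE5 at chrXIII:226001-228000, had 0.0205, 0.0528 and 0.0175, so that Fkh1 OE was 2.58-fold higher and Fkh2 OE at 0.855 of no OE. RPS17A RNA was 2073 FPKM in no OE, 3334 in Fkh1 OE and 3586 in Fkh2 OE, called higher in both. NSE5 RNA was called higher in Fkh2 OE only. Whether RNA and BrdU signal moved together at these windows was not tested.

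The highest of these windows, by HCM1 and NDD1, stayed under the rule of size in Fkh1 OE, as did the low one by MCM1. By HCM1, at chrIII:223901-225900, the signal was 0.667 in no OE, 0.943 in Fkh1 OE and 0.394 in Fkh2 OE. By NDD1, in RDR1 at chrXV:1052751-1054750, it was 0.540 in no OE, 0.521 in Fkh1 OE and 0.185 in Fkh2 OE, 2.92-fold lower in Fkh2 OE than in no OE. By MCM1, in IOC4 at chrXIII:355001-357000, it was 0.00678, 0.0129 and 0.00987. In all, 5 of the 8 sites were at least 2-fold higher in Fkh1 OE against 50.8% of the 392 sites of the genome. In Fkh2 OE 4 were higher against 23.2% and 1 lower against 15.6%. Between Fkh2 OE and Fkh1 OE 6 of 8 sites were at least 2-fold lower in Fkh2 OE, against 62.2% of all sites. FHL1 and MCM1 were the 2 under the rule of size. After division by the column totals, 4 of 8 sites were higher in Fkh1 OE (YOX1 lost, at 1.85-fold) and 5 higher and 0 lower in Fkh2 OE, where NDD1 was 1.90-fold lower, MCM1 2.24-fold higher and YOX1 turned to 1.32-fold higher. Between the overexpressing groups 0 of 8 then passed, and FKH2, FHL1 and MCM1 turned to higher in Fkh2 OE.

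**Figure D4:**
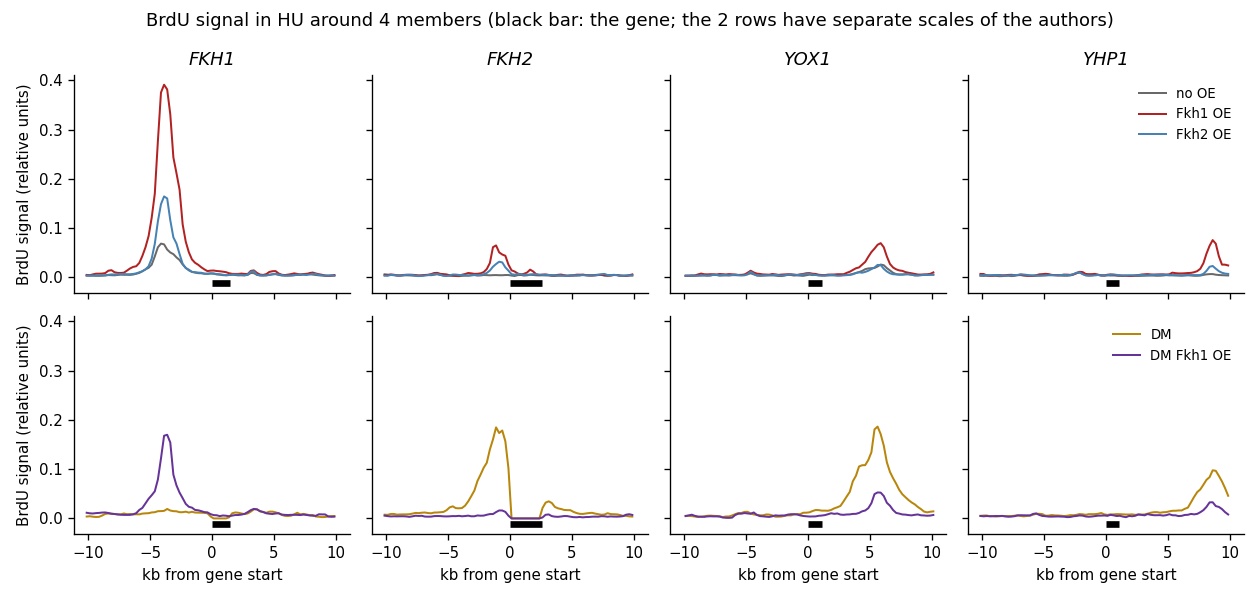
BrdU signal in HU (relative units, 250 bp means) against distance in kb from the start of FKH1, FKH2, YOX1 and YHP1, negative upstream, with the black bar marking the gene; the upper row shows no OE, Fkh1 OE and Fkh2 OE, the lower row the double mutant without and with Fkh1 OE, on a separate scale of the authors. The window upstream of FKH1 is higher with Fkh1 OE in both rows, and those beside the other 3 genes are higher with Fkh1 OE in the upper row and lower in the lower row.

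The sites also took up BrdU in the time course. In the pulse of 20 to 35 min the window by FKH2 went from 0.0184 in no OE to 0.158 in Fkh1 OE, and that by YHP1 from 0.0186 to 0.147. The window by HCM1 went from 0.460 to 0.858 and that by NDD1 from 0.405 to 0.619, both under 2-fold. Of the 8 sites 6 were at least 2-fold higher in this pulse against 60.8% of the sites of the genome, and 2, by FKH2 and YHP1, in the pulse of 30 to 45 min against 26.3%. In the last pulse the 8 folds lay between 0.734 and 0.941, and 0 passed the rule of size against 2.06%. After division by the column totals 3 of 8 sites (FKH2, FHL1 and YHP1) passed in the first pulse and 0 in the second.

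In the double mutant the deletions could be read in the BrdU table. Of the 30 bins over FKH1, 29 were at 0 in DM, and 50 of the 52 bins over FKH2. With pGAL-Fkh1 added, 0 of 30 bins over FKH1 and 51 of 52 over FKH2 were at 0. The mean over FKH1 was then 0.00576, or 0.597 of that in the 1 kb on each side, while in the wild-type Fkh1 OE column it was 1.01 times that of its flanks. FKH1 and FKH2 were therefore left out of counts of loci in the double mutant. Of the other 6 gene bodies 1 passed 2-fold in either direction against 32.2% of all loci. It was YOX1, which fell from 0.0155 in DM to 0.0046 with Fkh1 OE, or to 0.298 of its value; 28.1% of all loci were lower by the rule. The other 5 folds lay between 0.634 and 1.24.

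At the nearest sites, overexpression of Fkh1 in the double mutant went with differences in both directions. By FKH1 the signal rose from 0.0152 in DM to 0.113 with Fkh1 OE, 7.40-fold, and by NDD1 from 0.0201 to 0.261, 13.0-fold. At the FHL1 window, 38.3 kb from that gene, it went from 0.219 to 0.00908, 24.1-fold lower. By FKH2 it went from 0.148 to 0.0110, 13.5-fold lower, in a window that reaches into the deleted gene. By YHP1 it fell from 0.0811 to 0.0234 and by YOX1 from 0.145 to 0.0381. HCM1 stood at 0.292 and 0.574, 1.97-fold, and MCM1 at 0.0187 and 0.0132. In all 2 of 8 sites were at least 2-fold higher against 21.0% of all sites, and 4 lower against 33.8%; after division by totals HCM1 passed too, at 3.00-fold. As multiples of the median bin of each column, the FHL1 site was at 1.58 in no OE, 5.00 in Fkh1 OE, 27.8 in DM and 1.56 in DM with Fkh1 OE. The FKH2 site was at 1.04, 7.04, 18.8 and 1.88, and the NDD1 site at 126, 86.4, 2.55 and 44.8 in the same order. Such multiples depend on the background of each table. The HCM1 site was at 156 in no OE in HU, but at 3.68 in the wild-type control of the RNR3 pair in HU. Levels of separate tables are therefore not shown to be comparable. By the labels the double mutant also differs from the wild type by its origin replacement, and the effects of the 2 changes cannot be told apart between tables. Its BrdU table also had a chromosome III longer by 10131 bp.

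**Figure D5:**
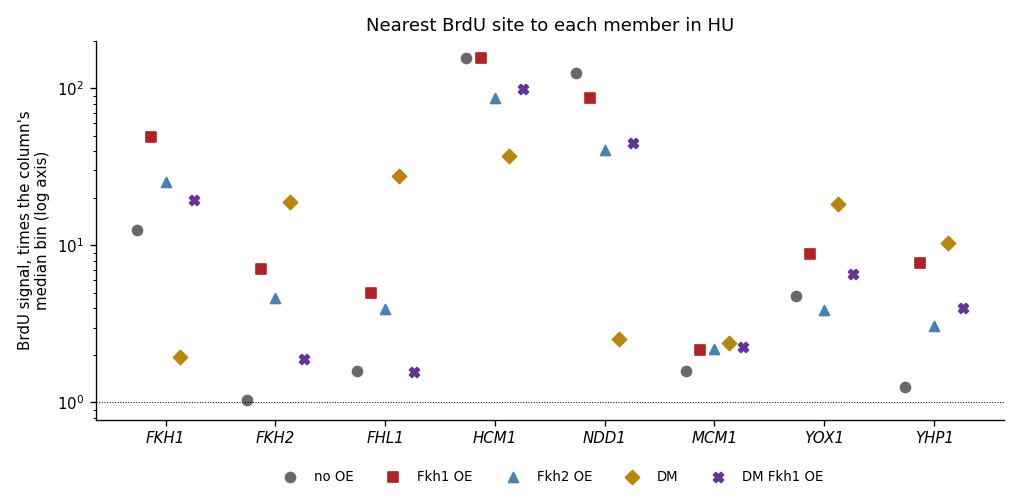
BrdU signal in HU at the 2 kb window of the peak nearest to each member, as multiples of the median nuclear bin of the same column (log axis), for no OE, Fkh1 OE, Fkh2 OE, the double mutant (DM) and the double mutant with Fkh1 OE, 1 combined value per point. The points of FKH1, HCM1 and NDD1 are lowest in DM, at 1.93, 37.1 and 2.55, and those of FKH2, FHL1, YOX1 and YHP1 are highest in DM, at 18.8, 27.8, 18.4 and 10.3. Multiples depend on the background of each table, so levels of double-mutant and wild-type columns are not shown to be comparable.

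With RNR3 overexpressed in HU, HCM1 was the 1 member of 8 to pass 2-fold, against 8.14% of all gene loci. Its gene body went from 0.158 in the control to 0.377, a 2.39-fold increase, while the window at the peak upstream of it was 0.578 and 0.631. FKH1 came next, at 0.162 and 0.234 over the gene and 0.202 and 0.391 at its site. The other 6 gene bodies lay between 0.842 and 1.33 times the control. Of the 8 sites 0 passed 2-fold, against 2.82% of all sites in either direction. This table has its own scale, and its median bin, 0.157 in the control, was far closer to its highest bin of 1 than in the other HU tables.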

How the data were processed

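BrdU signal was deposited by the authors in 4 tables of 50 bp bins with 13 columns, each combining the libraries of a group; their scaling is not given in these sources. FPKM, p-values and q-values are those of the authors' deposited table, per the file headers from Cuffdiff. Per the submitters' processing notes, Bowtie2, SAMtools, bedtools, TopHat2 and Cufflinks were used with build R64. The number of columns without a sample was 0. With combined columns no count model or test across libraries was possible; the planned tests were replaced by the deposited q-values and, for BrdU, a 2-fold rule of size.

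Folds of FPKM, means over gene coordinates and folds of signal were computed here (pandas 2.3.3, numpy 2.4.6), and the calculations were tested on simulated data. All 8 members were named, and of each list up to the 6 called genes of largest fold per comparison. BAR1 and the RNA of RPL9B, ASG1, TAO3, RPS17A and NSE5 were added after their values were seen. Likeness was the Euclidean distance of the log2 folds, with the 3 nearest entries named. Sites were 2 kb windows at the peak nearest to each member over the 3 wild-type HU columns, chosen after seeing the data. Peaks were local maxima of the 1 kb mean within 2.5 kb on each side, at 3 times the median or more, 5 kb apart. The double-mutant table had a chromosome III longer by 10131 bp, so HCM1 was read there at an offset of 10150 bp (rank correlation of the surrounding 20000 bp with the no OE column 0.959 at the offset, -0.80 without). Members and lists were chosen with earlier results of these data known.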

Additional observations from a re-analysis of the deposited data

Results flagged for a closer look

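Fkh1 overexpression in HU went with opposite directions in the wild type and the double mutant at 6 of 8 nearest sites, and at 4 of them the fold passed 2-fold in both backgrounds. By FKH2 the fold was 9.48 in the wild type and 0.0740 in the double mutant. At the FHL1 window, 38.3 kb from that gene, it was 4.45 and 0.0415. By YOX1 it was 2.58 and 0.263, and by YHP1 it was 8.77 and 0.289. The others were MCM1 (1.91 and 0.706) and NDD1, read 17.3 kb away (0.964 and 13.0). Over all sites of the genome the median fold was 2.02 in the wild type and 0.721 in the double mutant, also in opposite directions. By the 2-fold rule 50.8% of all sites were higher in the former and 33.8% lower in the latter. The share of all sites with opposite directions is not given, so the counts cannot be read as particular to these members. The sites were picked at peaks of the wild-type HU columns, which favours rises there. The difference between backgrounds was not tested: each group has 1 combined column, and the double mutant is in a table of its own. By the labels the backgrounds differ by the FKH1 and FKH2 deletions and by the ARS501 replacement, which cannot be told apart. The double-mutant table also had a chromosome III longer by 10131 bp. After division by the column totals the YOX1 site was at 1.85 in the wild type and MCM1 at 1.08 in the double mutant. By contrast the site by FKH1 was higher with Fkh1 overexpression in both backgrounds, at 5.49-fold and 7.40-fold.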

How the results depend on the processing

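No paired analysis was possible because each deposited column combines the libraries of a group, and leaving out single libraries was not run for the same reason. At a q-value below 0.01 the count of called members with Fkh1 overexpression was 1 instead of 2 (NDD1 lost), and that of the CLB2 cluster 0 instead of 1, of the Fhl1 partners 1 instead of 3 and of the G1 factors 1 instead of 3. The Hcm1 targets then had 4 instead of 5 with Fkh1 overexpression, and the a-specific genes 2 instead of 3. With Fkh2 overexpression the early cell cycle box genes had 1 instead of 2, the a-specific genes 2 instead of 3 and the CLB2 cluster 8 instead of 11. Between Fkh2 OE and Fkh1 OE, the CLB2 cluster had 5 instead of 8 and the early cell cycle box genes 0 instead of 1. The forkhead cofactors had 1 instead of 3 and the Mcm1 partners 3 instead of 4.

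For BrdU over genes with 1 kb on each side, 1 member passed 2-fold in HU for Fkh1 OE, 1 for Fkh2 OE and 2 in the double mutant. With columns divided by their nuclear totals, 0 passed in HU for Fkh1 OE, 2 for Fkh2 OE, 2 between them, 2 in the first pulse and 1 in the second. At a 1.5-fold rule, 3 passed between Fkh2 OE and Fkh1 OE, 2 in the last pulse and 2 in the double mutant. By that rule 8 passed in the first pulse and 3 in HU for Fkh1 OE. MCM1, at 1.62-fold, joined those that passed in the second pulse. The counts at these settings, and those at a q-value below 0.01, have no share of all loci, sites or entries beside them. Division by totals turned the direction of 39 of 126 folds, 25 of 62 over genes and 14 of 64 at sites; 8 of 8 gene folds turned between Fkh2 OE and Fkh1 OE. Among them, 3 had passed 2-fold: the log2 fold of the FKH2 site between Fkh2 OE and Fkh1 OE became 0.0828, that of NDD1 in the first pulse -0.0209 and that of the MCM1 site in the first pulse -0.0211. The site counts fell from 6 to 0 between Fkh2 OE and Fkh1 OE, from 6 to 3 in the first pulse and from 2 to 0 in the second. The cause was not tested beyond the change of scale. The combination of nearest sites with total scaling was chosen after seeing the data. Depth behind the BrdU values is unknown.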
